A study of Mus musculus with 17 samples.

Results

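The Hox genes are 38 homeobox genes in 4 clusters, selected by name from the transcripts of a survey of micrococcal nuclease (MNase) fragments around mouse start sites. They had 40 distinct start sites among the 24084 of the pileup tables and 39 among the 16482 of the count tables, because Hoxa10 and Hoxb3 each had a second start. Of the 38 main start sites, 35 were classed by the authors as high-CpG (HCP), Hoxb13 and Hoxb3 were intermediate (ICP), and Hoxa10 had no class. In mm9 coordinates the start sites of HoxA lay on chromosome 6 from 52114830 to 52210874 (10 genes), those of HoxB on chromosome 11 from 96055674 to 96227071 (10 genes), those of HoxC on chromosome 15 from 102751561 to 102864825 (9 genes) and those of HoxD on chromosome 2 from 74506366 to 74601036 (9 genes). The nearest pair of member start sites was 4037 bp apart, so the windows of 1000 and 2000 bp to each side did not overlap between members.

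Hox genes encode DNA-binding homeodomain proteins that set positional identity along the body axis, and they are switched on in the order in which they lie in each cluster. Genes at the anterior end (paralogue groups 1 to 3) pattern the hindbrain and the pharyngeal arches, central genes (4 to 8) the neck and trunk, and posterior genes (9 to 13) the lumbar and tail regions, the limbs and the genitalia. In ES cells the clusters are textbook targets of Polycomb repression, with little transcription. In sperm most histones are replaced by protamines, and developmental promoters are often discussed as places where some nucleosomes stay.

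MNase cuts DNA that is not shielded by nucleosomes or other proteins. The pileup tables are named for a range of fragment sizes close to the length of nucleosomal DNA. The ES cells were the E14 line (129 X Ola background), grown in serum and LIF and digested with 10 units of enzyme, and the supernatant of a 5000 g spin was sequenced. Sperm came from 10-week-old C57/B6J mice and was crosslinked with 1% formaldehyde for 15 min. The standard sperm library was the supernatant of a digest with 1 unit, for far more cells per unit, and 12 further sperm libraries form 3 titrations: unspun material at 0.5, 2, 10 and 50 units, and supernatant and pellet at 1, 5, 20 and 100 units each. The labels give formaldehyde for sperm but no crosslinking for ES cells, so cell type, strain, crosslinking and enzyme dose differ together between the ES cell and sperm libraries and cannot be told apart. Each condition was 1 library, so the 2 cell types were compared without a test, and every interval given is a 95% counting interval only. The libraries hold genomic DNA, not RNA, so marker genes could not check the cell type.

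The ES cell and standard sperm libraries held on average 32.2 and 21.6 fragments per start site within 1000 bp to each side, where a fragment is the signal of an isolated fragment. The 12 titration libraries held 0.212 to 1.11 fragments per start site. The titrations were therefore read mainly over the members as a group, and their values at single genes rest on few fragments.

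The RefSeq promoter table for GRCm38.p6 held 22 of the 38 genes. For 13 of them the spacing of the starts equalled that of the deposited mm9 start sites to within 2 bp, and only these were set beside the data. The 250 bases upstream of the start are shown for 6, with each CpG in capitals, because these 6 span the range of outcomes below. Hoxa7 (chr6:52218574-52218823, minus strand), Hoxa9 (chr6:52227371-52227620, minus strand) and Hoxd4 (chr2:74721728-74721977, plus strand) kept as much relative signal in standard sperm as in ES cells within the counting interval.
Hoxa7: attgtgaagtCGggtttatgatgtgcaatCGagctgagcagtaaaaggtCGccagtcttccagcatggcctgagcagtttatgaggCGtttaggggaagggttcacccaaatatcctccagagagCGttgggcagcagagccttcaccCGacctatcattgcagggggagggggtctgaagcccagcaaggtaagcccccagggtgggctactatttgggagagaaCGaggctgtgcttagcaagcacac
Hoxa9: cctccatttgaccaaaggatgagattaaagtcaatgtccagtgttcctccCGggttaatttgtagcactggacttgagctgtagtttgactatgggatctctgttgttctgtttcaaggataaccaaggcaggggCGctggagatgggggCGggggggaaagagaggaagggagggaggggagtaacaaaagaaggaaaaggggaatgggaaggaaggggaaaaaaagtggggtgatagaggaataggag
Hoxd4: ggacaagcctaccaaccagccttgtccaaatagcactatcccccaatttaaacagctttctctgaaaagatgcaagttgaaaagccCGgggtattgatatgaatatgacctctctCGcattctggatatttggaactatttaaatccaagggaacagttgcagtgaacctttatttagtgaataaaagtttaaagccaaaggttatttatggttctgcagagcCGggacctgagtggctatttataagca
Hoxa3 (chr6:52213068-52213317, minus strand), Hoxb1 (chr11:96365508-96365757, plus strand) and Hoxd3 (chr2:74711743-74711992, plus strand) were lower in standard sperm by more than their intervals.
Hoxa3: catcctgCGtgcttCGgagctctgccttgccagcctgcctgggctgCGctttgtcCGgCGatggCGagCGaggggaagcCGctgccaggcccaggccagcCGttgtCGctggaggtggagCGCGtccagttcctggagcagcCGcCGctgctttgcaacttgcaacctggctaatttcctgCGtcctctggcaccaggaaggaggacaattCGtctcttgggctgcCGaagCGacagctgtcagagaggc
Hoxb1: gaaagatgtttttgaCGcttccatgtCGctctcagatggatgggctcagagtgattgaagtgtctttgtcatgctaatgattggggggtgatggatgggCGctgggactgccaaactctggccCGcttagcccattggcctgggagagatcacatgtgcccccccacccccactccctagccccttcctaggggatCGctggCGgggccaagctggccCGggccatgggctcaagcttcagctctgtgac
Hoxd3: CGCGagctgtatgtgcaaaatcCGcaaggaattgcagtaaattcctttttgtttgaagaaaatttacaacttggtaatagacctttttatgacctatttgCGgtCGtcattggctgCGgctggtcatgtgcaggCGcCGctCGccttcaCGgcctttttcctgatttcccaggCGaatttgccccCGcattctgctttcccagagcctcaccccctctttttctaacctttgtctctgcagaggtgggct
Counting CpGs, the upstream 250 bases of Hoxa9 and Hoxd4 held 3 CpGs each and those of Hoxa7 and Hoxb1 held 7, against 12 in Hoxd3 and 18 in Hoxa3. These 6 were picked by outcome. Among the matched starts not shown, Hoxb4 held 14 CpGs (log2 ratio 0.09), Hoxd9 13 (-0.03) and Hoxb8 12 (-0.04). The main and second starts of Hoxa10 held 7 (0.02) and 20 (-0.10), Hoxa2 6 (0.49), Hoxd1 24 (-0.68) and Hoxa5 28 (-0.45). The median over the 14 matched starts was 12, from 3 in Hoxa9 and Hoxd4 to 28 in Hoxa5, against 6 over all 32817 promoters of the table. Over these 14 starts, Spearman's rho between the number of CpGs and the log2 ratio of sperm to ES cells was -0.47. With the sperm level alone it was -0.58 and with the ES cell level -0.17. Pearson's r with the log2 ratio was -0.41. The points share their libraries and differ in base composition, and no p-value is given. Outside Hox the median log2 ratio also differed by CpG class, at -0.25 for high-CpG, 0.02 for intermediate and 0.23 for low-CpG start sites. The string TATAAA, on either strand, occurred in 3 of the 14 matched upstream windows and in 12.4% of all promoters in the table.

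The first question was whether Hox promoters hold more or less nucleosome-sized DNA in sperm than in ES cells. Within 1000 bp of the start site, Hox promoters as a group were lower in standard sperm. Over the 38 members, 1100 fragments in ES cells came to 0.901 times the average promoter and 542 in sperm to 0.662 times. The pooled log2 ratio of sperm to ES cells, relative to all promoters, was -0.44 (-0.60 to -0.30), against -0.24 for the other 10539 high-CpG start sites (-0.24 to -0.23). The intervals do not overlap, but they leave out the spread between genes (-1.79 to 1.64 over the 38 members), and the difference was not tested. With a pseudocount of 1 fragment the median over members was -0.38, beside -0.25 for the other high-CpG sites. Lower values were seen at 29 of the 38 (65.5% of high-CpG and 53.2% of all start sites were lower). Of the 38, 15 were lower by more than 1.5-fold, where 29.4% of high-CpG and 22.2% of all start sites were, and 3 were higher by more than 1.5-fold, where 9.49% of high-CpG and 17.5% of all start sites were. The counting interval lay below 0 at 8 members (13.7% of high-CpG and 10.7% of all start sites) and above 0 at none (4.05% and 10.9%). Nearest to the 1.5-fold line on the lower side were Hoxb3 (-0.64), past it, and Hoxb9 (-0.54), short of it. On the higher side they were Hoxa4 (0.61), past it, and Hoxa2 (0.49), short of it. When both libraries were scaled to high-CpG promoters instead, the median over members was -0.14. On that scale 21 of the 38 were lower at all and 10 were lower past 1.5-fold. The shares of other start sites on that scale are not given here, so these counts have no background.

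**Figure D1:**
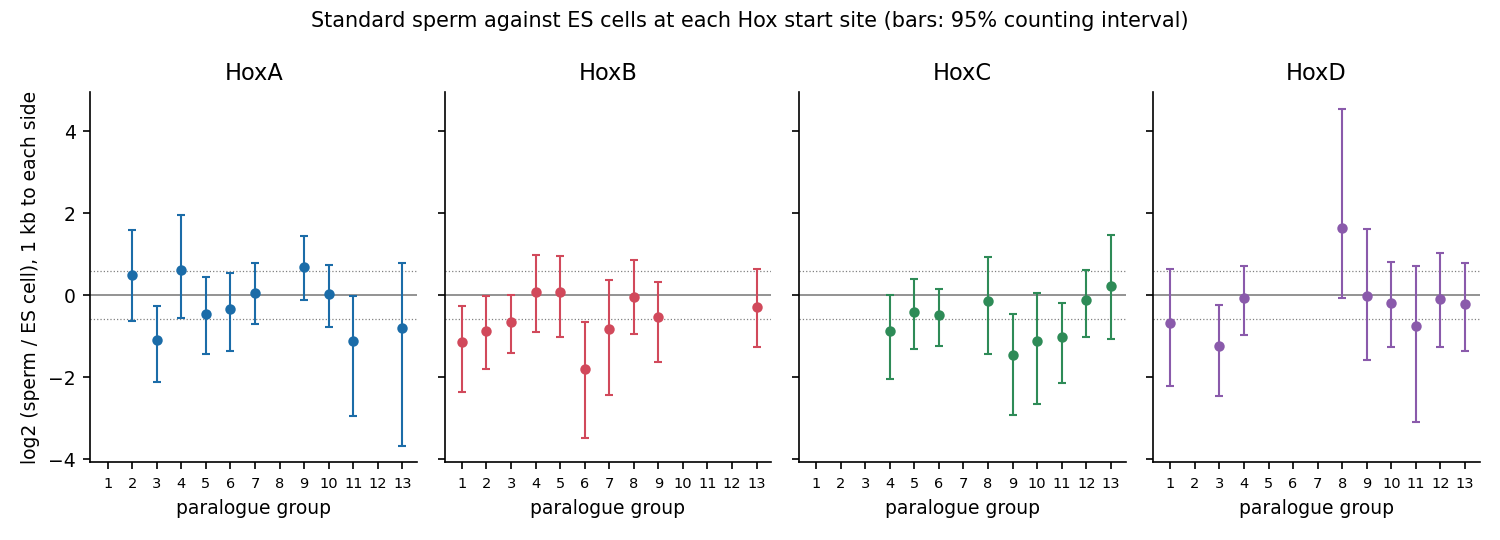
Log2 ratio of standard sperm to ES cell signal within 1000 bp of each of the 38 Hox start sites (y axis), by paralogue group (x axis) in the 4 clusters; points are members, bars are 95% counting intervals and dotted lines mark 1.5-fold. The interval lies below 0 at 8 members, Hoxb6 being the lowest at -1.79, and the wide bar at Hoxd8 belongs to the member with fewest ES cell fragments.

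Among anterior genes, 6 of 7 were lower past 1.5-fold, where 29.4% of high-CpG and 22.2% of all start sites were. Their pooled log2 ratio was -0.83 (-1.18 to -0.49), from 260 ES cell and 97.7 sperm fragments. Hoxb1, required for hindbrain segment identity, had 38.9 fragments in ES cells and 11.2 in sperm (log2 ratio -1.13, -2.36 to -0.26). Hoxa3, needed for thymus and parathyroid formation, had 45.7 and 13.68 (-1.09, -2.12 to -0.25). Hoxd3, which acts with Hoxa3 in the neck vertebrae, had 35.95 and 9.59 (-1.23, -2.45 to -0.23), the lowest ratio of HoxD. Hoxb2 had 43.95 and 15.5 (-0.87, -1.81 to -0.03). Hoxb3 held the most fragments of HoxB, 62.1 in ES cells and 26.1 in sperm (-0.64, -1.40 to 0.00). The exception was Hoxa2, which patterns the second pharyngeal arch, with 15.95 and 14.95 fragments (0.49, -0.64 to 1.59). The deposited starts of Hoxa3 and Hoxd3 lie outside the order of their paralogue numbers: that of Hoxa3 (52163066) falls between those of Hoxa6 (52158623) and Hoxa7 (52168572), and that of Hoxd3 (74550049) between those of Hoxd8 (74543545) and Hoxd4 (74560034).

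Central genes were closer to the ES cell level. Of 15, 3 (20%) were lower past 1.5-fold, where 29.4% of high-CpG and 22.2% of all start sites were. Another 2 were higher past 1.5-fold, where 9.49% and 17.5% were. Their pooled log2 ratio as central genes was -0.31 (-0.54 to -0.07), beside -0.24 for other high-CpG start sites. Hoxb6, a trunk gene, had the lowest ratio of all 38, with 34.5 fragments in ES cells and 5.91 in sperm (-1.79, -3.47 to -0.66). Hoxb4, known for expanding blood stem cells, lies on the far side of Hoxb5 from it and had 25.6 and 17.95 (0.09, -0.91 to 0.97). A microRNA start, that of Mir10a, lies 1102 bp from the Hoxb4 start, so the outer part of its wider window covers both. Hoxc6, active in the thoracic region and forelimb field, held the most fragments of HoxC, 60 and 28.4 (-0.48, -1.23 to 0.15). Hoxa7 held the most of HoxA, 39.8 and 27.6 (0.06, -0.69 to 0.79), and Hoxd4, a hindbrain and neck gene, the most of HoxD, 34.05 and 21.3 (-0.08, -0.98 to 0.71). Hoxd8 stood highest at 1.64, but from 3.45 and 8.32 fragments, with an interval from -0.07 to 4.54.

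Posterior genes were mixed. Of 16, 6 (37.5%) were lower past 1.5-fold, where 29.4% of high-CpG and 22.2% of all start sites were. Higher past 1.5-fold was 1, where 9.49% and 17.5% were. The pooled log2 ratio of posterior genes was -0.38 (-0.63 to -0.14). Hoxa9, which is active in blood progenitors, was the highest of the well-covered members, with 28.7 fragments in ES cells and 31 in sperm (0.68, -0.11 to 1.46). Hoxc9, a determinant of thoracic motor neurons, had 36.5 and 8.23 (-1.44, -2.91 to -0.46). Hoxa11 and Hoxd11, which build the forearm, and Hoxc11 were all lower past 1.5-fold. Hoxa11 had 22.7 and 6.32 fragments (-1.12, -2.95 to -0.03), with the antisense gene Hoxa11os starting 525 bp away, and Hoxc11 had 41.9 and 13.3 (-1.01, -2.14 to -0.19). Hoxd11 had only 11.6 and 4.05 (-0.75, -3.10 to 0.71). Hoxc13, a hair and nail gene, was the highest of HoxC, with 14.05 and 10.9 (0.23, -1.06 to 1.47). The differences between anterior, central and posterior genes were not tested. The intervals of the anterior and central pooled ratios overlap.

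By cluster, the pooled log2 ratio was -0.61 (-0.89 to -0.32) for HoxB and -0.63 (-0.94 to -0.33) for HoxC. It was -0.16 (-0.44 to 0.12) for HoxA and -0.34 (-0.72 to 0.02) for HoxD, whose intervals hold 0. HoxD was the least covered cluster in both libraries, at 0.617 times the average promoter in ES cells and 0.487 times in sperm. HoxC stood at 1.06 and 0.681 times and HoxB at 1.05 and 0.689 times. By paralogue group, every member of groups 1 (2 genes), 3 (3 genes) and 11 (3 genes) was lower past 1.5-fold. Of high-CpG start sites 29.4% were, and of all start sites 22.2%. The pooled log2 ratios of these groups were -1.08 (-1.92 to -0.27), -0.96 (-1.48 to -0.50) and -1.11 (-1.81 to -0.41). Group 4 stood at -0.17 (-0.64 to 0.29) and group 8 at 0.15 (-0.49 to 0.79). The groups named were picked by outcome. Over the 39 start sites the ES cell and standard sperm levels correlated with Pearson's r of 0.61 and Spearman's rho of 0.55, across sites that share the annotation and the mappability of their sequence.

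Genes around the clusters gave a frame. The 8 protein-coding genes beside the clusters, among them Evx1, Evx2 and Mtx2, had a median log2 ratio of -0.01 and none was past 1.5-fold in either direction. Of the 5 starts of the Mir10 and Mir196 families inside the clusters, 3 were lower past 1.5-fold, Mir196b most (-1.44, from 21.6 and 4.59 fragments). Mir10a, the neighbour of Hoxb4, was at 0.13. The 9 genes for Hox partner proteins (Pbx, Meis and Pknox) had a median of -0.60, with 5 lower past 1.5-fold and 1 higher. The 6 ParaHox genes, relatives of Hox genes outside the clusters, had a median of -0.80. The median was -0.40 for the 17 Polycomb genes and -0.54 for the 7 Trithorax genes. It was -0.06 over all start sites and -0.25 over other high-CpG start sites, the class of most of these protein-coding genes. Past 1.5-fold, 29.4% of high-CpG and 22.2% of all start sites were lower, and 9.49% and 17.5% were higher. None of these lists was tested against the rest.

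The second question was how fragments are placed around the start site, since active CpG-rich promoters usually have a nucleosome-depleted gap there. Close to the start, Hox sites were less depleted than other high-CpG start sites in both deep libraries. In the window from 200 bp upstream to 300 bp downstream, the 39 Hox start sites held 245 fragments in ES cells, 1.74 times (1.53 to 1.97) the number expected at the mean of the other high-CpG sites. In standard sperm they held 130 fragments, 1.97 times (1.65 to 2.35) that number. Over the 37 high-CpG Hox start sites alone, the values were 1.55 times (1.35 to 1.78) in ES cells and 1.87 times (1.55 to 2.25) in sperm. On the scale of the average bin, the Hox level in this window was 0.643 in ES cells and 0.477 in sperm, where other high-CpG sites were at 0.369 and 0.242. Over 500 bp to each side the excess was much smaller, at 1.15 times for ES cells (1.05 to 1.25) and 1.13 times for sperm (0.987 to 1.28, an interval that holds 1). Above the class median were 28 of the 38 members in ES cells (49.5% of high-CpG sites) and 25 in sperm (50.0%).

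**Figure D2:**
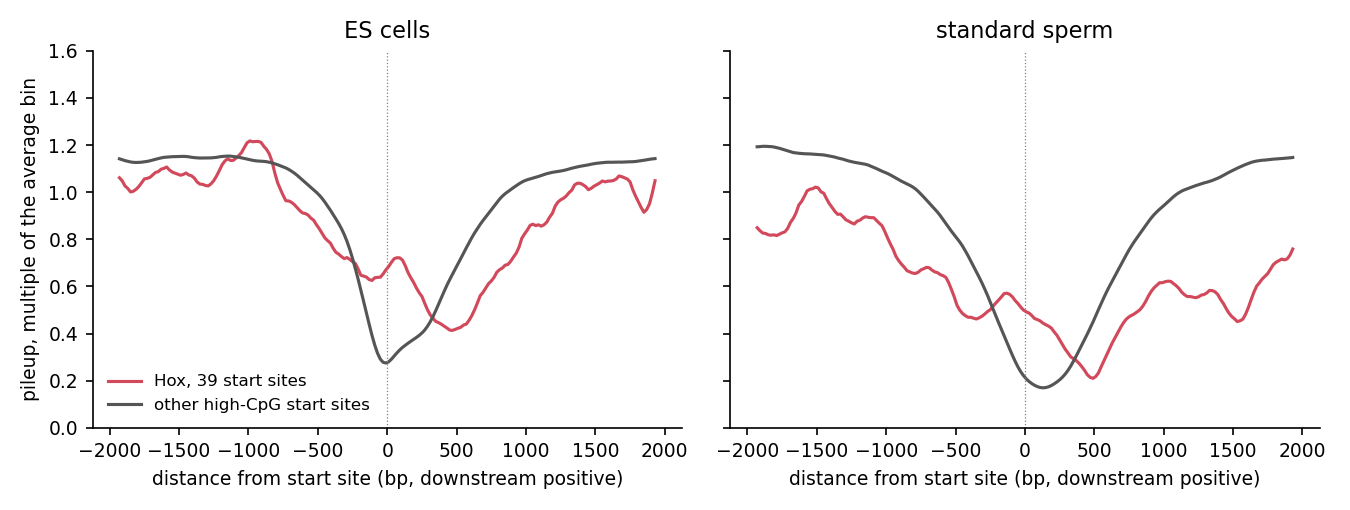
Mean pileup at 39 Hox start sites (red) and at other high-CpG start sites (grey) by distance from the start (x axis, bp), as a multiple of the average bin (y axis), in ES cells and standard sperm, smoothed over 5 bins. Within 500 bp of the start, the grey curves are lowest at -10 bp in ES cells and 130 bp in sperm, and the red curves at 470 and 490 bp, the latter at the edge of that range.

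The shape of the profile differed as well as its depth. Within 500 bp of the start, the mean of the other high-CpG sites was lowest at -10 bp in ES cells (0.275 of the average bin) and at 130 bp in sperm (0.170). The Hox mean was lowest at 470 bp in ES cells (0.414) and at 490 bp in sperm (0.210). From 2000 to 1000 bp upstream Hox sites held 0.942 times (0.879 to 1.01) the fragments of other high-CpG sites in ES cells and 0.777 times (0.709 to 0.849) in sperm. From 1000 to 200 bp upstream they held 0.929 times (0.854 to 1.01) and 0.705 times (0.622 to 0.796), so outside the start window the sperm level was low on both sides. Between 300 and 1000 bp downstream, Hox sites held 0.690 times (0.614 to 0.773) the fragments of other high-CpG sites in ES cells and 0.631 times (0.535 to 0.741) in sperm. From 1000 to 2000 bp downstream Hox sites were at 0.892 times (0.830 to 0.958) in ES cells and at 0.557 times (0.498 to 0.621) in sperm. An isolated fragment covers 13 bins of 20 bp in these pileups, wider than the fragment itself, so the edges of every dip are smoothed alike for both groups.

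**Figure D3:**
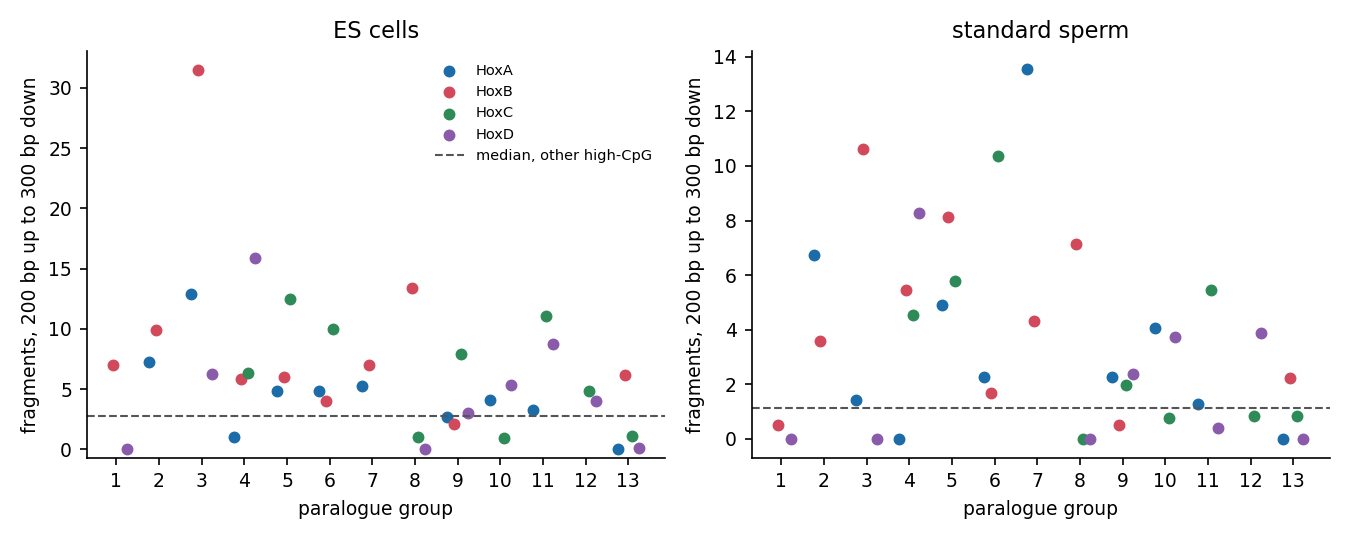
Fragments from 200 bp upstream to 300 bp downstream of each of the 38 main Hox start sites (y axis) by paralogue group (x axis), coloured by cluster, in ES cells and standard sperm; the dashed line is the median of other high-CpG sites (2.77 and 1.14). Hoxb3 stands highest in ES cells with 31.5 fragments and Hoxa7 in sperm with 13.5.

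HoxB carried the largest share of this start-site signal. Its 11 start sites held 2.62 times (2.14 to 3.17) the fragments of other high-CpG sites in ES cells and 2.54 times (1.86 to 3.37) in sperm. HoxC stood at 1.71 and 2.01 times, HoxA at 1.17 (0.838 to 1.57) and 1.98 times, and HoxD at 1.33 (0.957 to 1.78) and 1.23 (0.754 to 1.95). Hoxb3 had 31.5 fragments in this window in ES cells and 10.6 in sperm, and its main start is of intermediate CpG class. Hoxb8 had 13.4 and 7.14, and Hoxd4 15.9 and 8.27. At Hoxa7 the order was the other way, with 5.27 fragments in ES cells and 13.5 in sperm. Hoxd1, Hoxd8 and Hoxa13 had none in either library, and Hoxd13, Hoxa4 and Hoxc8 had 0.091, 1.00 and 1.00 in ES cells and none in sperm. Hoxd3, an anterior gene, had 6.23 in ES cells and none in sperm. Without HoxB the Hox excess was 1.40 in ES cells and 1.75 in sperm.

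Along the clusters, the start-window excess was seen at anterior and central start sites, and the posterior intervals hold 1. Posterior sites held 1.06 times (0.822 to 1.37) the fragments of other high-CpG sites in ES cells and 1.01 times (0.659 to 1.46) in sperm. Anterior sites held 2.97 times (2.38 to 3.67) in ES cells and 1.91 times (1.26 to 2.82) in sperm. Of the 85.9 and 25.7 fragments behind these anterior values, the intermediate-CpG main start of Hoxb3 held 31.5 and 10.6. In sperm Hoxa2 held 6.73, Hoxb2 3.59, Hoxa3 1.41 and Hoxb1 0.5, and Hoxd1 and Hoxd3 held none. The anterior excess without Hoxb3 was not computed. Central sites held 1.81 times (1.47 to 2.20) in ES cells and 3.02 times (2.37 to 3.76) in sperm. The central and posterior intervals do not overlap in either library, but they cover counting error only and leave out the spread between genes. Single central genes held from 0 (Hoxd8) to 15.9 fragments (Hoxd4) in ES cells and from 0 (Hoxd8) to 13.5 (Hoxa7) in sperm. Neither the difference between central and posterior sites nor the contrast between cell types within a group was tested.

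Set against each gene's own flanks (1000 to 2000 bp to each side), 8 members had a start window at or above the flanks in ES cells, where 7.10% of high-CpG sites did, and 13 in sperm, where 3.76% did. The flanks of Hox sites were themselves low in sperm, at 0.749 of the average bin against 1.12 at other high-CpG sites, and close to them in ES cells, at 1.03 against 1.13. In HoxB the sperm flanks held 0.648 times the fragments of other high-CpG sites upstream and 0.341 times downstream, so a ratio to the flanks has a small denominator there. Of the 13, 6 were in HoxB, 3 in HoxA, 2 in HoxC and 2 in HoxD. Hoxc5 (3.68 times its flanks) and Hoxb5 (3.11 times) were the highest in sperm, and Hoxc5 has Mir615 starting 902 bp away. The pooled ratio of the 200 bp upstream to the flanks was 0.618 (0.501 to 0.761) for Hox in ES cells and 0.732 (0.557 to 0.959) in sperm, against 0.345 and 0.290 for other high-CpG sites. For the 300 bp downstream it was 0.623 (0.524 to 0.739) and 0.572 (0.443 to 0.732), against 0.315 and 0.168. Among the other lists, the start windows of Polycomb genes held 0.569 times (0.389 to 0.812) the fragments of their class in ES cells and 0.368 times (0.163 to 0.675) in sperm, and those of the ParaHox genes 1.16 times (0.746 to 1.70) and 0.854 times (0.407 to 1.69).

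The third question was whether Hox promoters change with enzyme dose or with the spin. The titrations were compared over the 39 start sites and the average promoter of the count tables, on which scale ES cells stood at 0.833 and standard sperm at 0.618. Within 1000 bp, Hox stood at 0.982, 0.732, 1.48 and 1.19 in unspun sperm at 0.5, 2, 10 and 50 units. In the supernatant it stood at 0.522, 1.16, 0.648 and 0.965 at 1, 5, 20 and 100 units, and in the pellet at 0.602, 0.804, 0.581 and 1.03. These rest on 4.98 fragments in the 1-unit pellet to 41.9 in the 100-unit supernatant over all 39 start sites. The values did not follow the dose in order in any of the 3 series, and 9 of the 12 intervals hold 1. The unspun library at 10 units was above 1 (1.06 to 2.00), and the supernatants at 1 unit (0.291 to 0.828) and 20 units (0.384 to 0.996) were below.

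**Figure D4:**
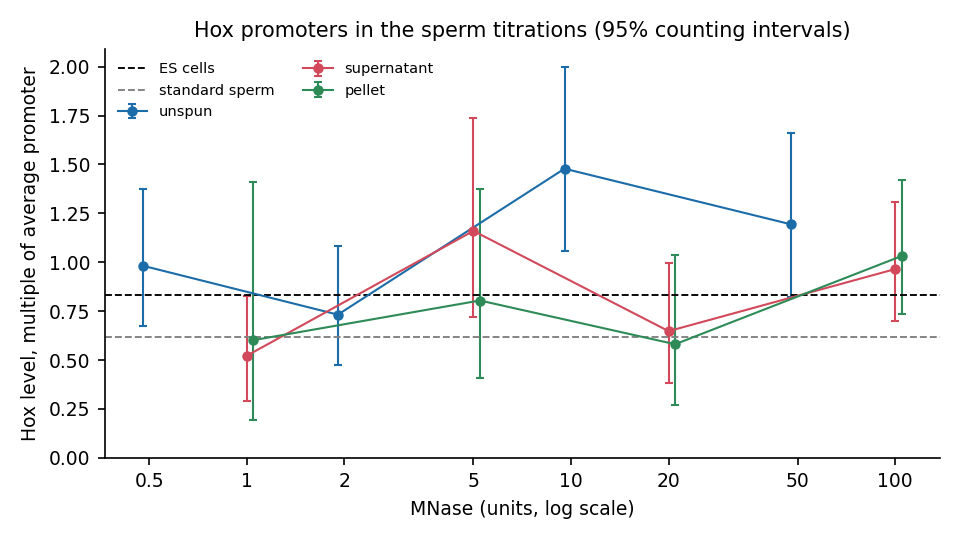
Hox level within 1000 bp of 39 start sites as a multiple of the average promoter (y axis) against MNase units (x axis, log scale) in the unspun, supernatant and pellet series, with 95% counting intervals; dashed lines mark ES cells (0.833) and standard sperm (0.618). Of the 12 intervals, 9 hold 1, and no series is ordered by dose.

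Pooled over its 4 doses, the unspun series was at 1.07 (0.896 to 1.27), the supernatant at 0.806 (0.657 to 0.983) and the pellet at 0.839 (0.644 to 1.06). Over all 12 titration libraries Hox was at 0.916 (0.816 to 1.03), above the 0.618 (0.567 to 0.673) of the standard sperm library. Other high-CpG sites differed in the same direction, at 0.771 in standard sperm and 0.916 to 1.12 in the single titration libraries. Relative to high-CpG sites, Hox was at 0.803 in standard sperm and at 0.557 to 1.45 in the single titration libraries. Anterior start sites were at 0.737 (0.542 to 0.969), central at 0.811 (0.663 to 0.987) and posterior at 1.10 (0.935 to 1.30). The lowest start sites over the 12 libraries were Hoxa2 (1.78 fragments), the second start of Hoxa10 (52184938) and Hoxb6. The highest were Hoxd9 (15.7) and Hoxa9 (13.7). The main start of Hoxa10 (52190853), used for its ratio of sperm to ES cells, is absent from the count tables. Of the 39 intervals, 1 lay above the average promoter, that of Hoxd9 (1.09 to 3.11 times), where 5.74% of high-CpG and 5.83% of all start sites did. At 3, those of Hoxa2, the second start of Hoxa10 and Hoxb6, the interval lay below it, where 3.21% and 4.06% did. Over the 39 start sites these levels correlated with standard sperm at Pearson's r of 0.15 and with ES cells at -0.07, with few fragments at each site.

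The excess at the start site was not seen in the titrations. In the same 500 bp the 39 Hox start sites held 63.4 fragments over the 12 libraries, 0.724 times (0.552 to 0.920) the number at other high-CpG sites, where standard sperm had 1.97 times. Leaving out each library in turn gave 0.680 to 0.764. By series it was 0.864 (0.570 to 1.26) unspun, 0.668 (0.412 to 1.02) in supernatant and 0.619 (0.338 to 0.995) in pellet. From the lowest to the highest dose of each series, pooled over the 3 series, it was 0.852, 0.769, 0.743 and 0.645, with intervals from 0.442 to 1.49 at the lowest and 0.416 to 0.965 at the highest. Other high-CpG sites had more signal just after the start at the top dose than at the lowest. Over the 300 bp downstream their ratio to the flanks was 0.560 at the lowest dose and 1.89 at the top for unspun sperm, 0.631 and 1.69 for supernatant, and 0.824 and 2.18 for pellet. The same ratio for Hox was 0.894 and 0.783 unspun, 0.455 and 0.804 in supernatant and 1.45 and 0.818 in pellet. Each of these Hox values rests on 2.49 to 6.14 fragments, and all 6 intervals hold 1. From 1000 to 2000 bp downstream, Hox sites were at 1.36 times (1.18 to 1.55) other high-CpG sites over the 12 libraries, against 0.557 times in standard sperm. The standard library and the titrations differ in depth and, for the supernatant and pellet series, in the kind of table, and the part of these in the contrast was not tested.

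**Figure D5:**
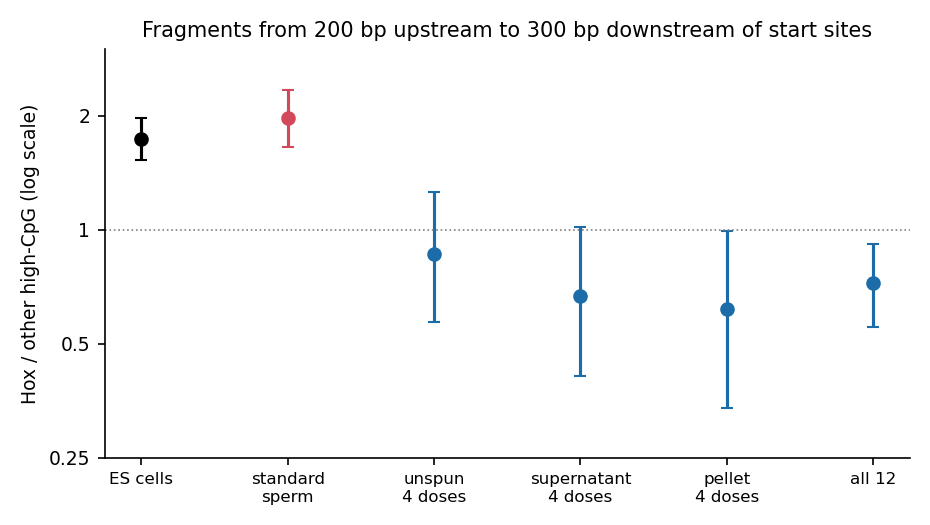
Fragments from 200 bp upstream to 300 bp downstream of 39 Hox start sites, divided by the number expected from other high-CpG sites of the same library (y axis, log scale), with 95% counting intervals, for ES cells, standard sperm, each titration series and all 12 titration libraries. ES cells (1.74) and standard sperm (1.97) lie above 1 and the 12 titration libraries together below it (0.724).

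Across the 8 supernatant and pellet libraries, edgeR's quasi-likelihood test with Benjamini-Hochberg adjustment, fitted on 10873 start sites with at least 10 counts, called no start site for dose or for fraction at adjusted p 0.05 (0% in either direction). Of the 39 Hox start sites, 23 passed that count minimum. None was called, and the lowest adjusted p of a Hox start site by that edgeR test was 0.368 for dose and 0.422 for fraction. Without adjustment, 6 Hox start sites had p below 0.05 for a rise with dose, where 10.0% of all tested start sites did and 0.616% for a fall. These were Hoxa4, the second start of Hoxb3 (96205082), Hoxc11, Hoxd11, Hoxd12 and Hoxd13, listed after their values were seen. By the same measure 3 of 23 Hox start sites had an unadjusted p below 0.05 without TMM scaling, where 724 of all 10873 did. With windows of 5000 bp it was 1 of 39, where 538 of 16461 did. By DESeq2 it was 0 of 23, where 298 of 10873 did. Without the 100-unit dose it was 0 of 9, and the number over all start sites is not given here. Over all start sites the number also fell, from 1158 in the main fit, so the fall was not specific to Hox. Hoxa4 had 15 counts in the 100-unit supernatant, 7 in the 100-unit pellet and none in the other 6 libraries (log2 slope 1.24, SE 0.401). The median slope per log2 unit of enzyme was 0.36 over the Hox start sites, 0.32 over high-CpG start sites and 0.27 over all. Without TMM scaling it was 0.26 over the Hox start sites and 0.13 over all. For pellet against supernatant, the unadjusted p was below 0.05 at 2 Hox start sites, Hoxc8 and Hoxc12, both lower in the pellet, where 8.93% of all were lower and 1.42% higher. Neither had a count in any of the 4 pellet libraries. Dose slopes were also simulated at this depth over 10873 start sites, with 1 dispersion of 3.26. With 7119 passing the count minimum, 12 of 200 slopes of 1 were recovered, and with 7054 and 7102 passing none of 0.6 or 0.3. Slopes at sites that failed the minimum counted as not recovered, whereas every real site tested had passed it. The simulation therefore does not give the power at the 23 Hox start sites, where the lack of a call does not show the lack of a slope.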

How the data were processed

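MNase fragments from mouse ES cells and sperm were analysed in 14 of 17 libraries; the unspun ES cells, the sperm input and the histone H3 immunoprecipitation were not analysed here. The submitters' processing notes name Bowtie, SAMtools 0.1.16 and the mm9 build. The authors deposited a signal (whole-number pileup per 20 bp bin, 2000 bp to each side) for 6 libraries and whole-number counts per bin for 8, neither scaled to depth. The count tables' header steps by 20 bp, but bins shared by neighbouring start sites matched (85.2% to 92.4% equal) at 50 bp and not at 20 bp (0% to 6.78%), so 50 bp was used. An isolated fragment adds 22 to a pileup and about 2.69 to 2.77 counts (2.01 to 2.02 at 1 unit, where isolated signal was narrower), and sums were divided by that; such counts are not independent fragments. The fragment size of the count tables, the duplicate handling and the sperm number of the titration digests are stated in no source used here, so titration units cannot be placed on the standard scale. The descriptions of the 5-unit and 20-unit pellet samples give other units than their titles, which were followed.

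RefSeq transcripts took their symbols from a table of GRCm38.p6 (names only), positions were taken once, and the start of highest mean signal stood for a gene. Promoters were summed over 1000 bp to each side and scaled to all start sites. Log2 ratios used a pseudocount of 22, and exact Poisson or binomial 95% intervals, made without it, cover counting error only, since reads carry no molecular identifiers. Dose (log2 units) and fraction were fitted with edgeR 4.0.16 (TMM, quasi-likelihood, R 4.3.3) on counts of at least 10 in total, with DESeq2 1.42.0 as an alternative; p-values measure the spread over doses, not over animals. The scripts were tested on simulated data: with deeper, less dispersed counts 152 of 200 slopes of 0.3 were recovered. Figures used matplotlib 3.10.9. Members, lists and tests were chosen with earlier results of these data known, and the window from 200 bp upstream to 300 bp downstream, pooled over both sides, was added after values were seen. Named genes were the highest and lowest ratio and the most fragments in each cluster among members with at least 20 fragments, any member past adjusted p 0.05, and others singled out after their values were seen. In all, 16 Hox genes had no entry in the promoter table.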

Additional observations from a re-analysis of the deposited data

How the results depend on the processing

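The lower Hox level in standard sperm depended on the window and the scale. Within 200 bp of the start the median log2 ratio was 0.11, where each library is scaled to all promoters in that same window. There 6 members were lower past 1.5-fold and 16 lower at all. The shares of all start sites in that window are not given here, so these counts have no background. Scaled to high-CpG promoters the median was -0.14. Among named genes, Hoxa9 was at -0.10 within 2000 bp. Within 200 bp the Hox share became 1.15 in ES cells, 1.00 in standard sperm, 0.640 in the 50-unit unspun library, 0.590 in the 100-unit pellet and 0.259 in the 1-unit supernatant, which was 0.908 within 2000 bp. Relative to high-CpG promoters the share was 0.939 in ES cells and 0.803 in standard sperm. The start-window excess, under alternatives chosen after seeing the data, was 1.15 in ES cells and 1.13 in sperm (0.987 to 1.28) within 500 bp to each side, and 1.40 in ES cells without HoxB; without each titration library in turn it was 0.680 to 0.764. The dose test called 1 start site within 5000 bp and the fraction test 1 with at least 1 count, neither a Hox gene, and 0 without each dose in turn, by edgeR and by DESeq2 otherwise (unadjusted p below 0.05 at 1158 and 298 start sites for dose, 1125 and 246 for fraction). The median Hox slope was -0.058 in the supernatant alone (9 start sites) and -0.043 on rounded fragments (3 start sites), and the median pellet difference was 0.17 on rounded fragments. The causes were not tested. The labels give no replicate numbers to block on; with pellet and supernatant of a dose taken as a pair, the fraction test called 0 of 10873 (Hox median -0.55). No library was repeated, so none could be left out within a group, and the depth of the titrations limits every single-gene value.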
